A study of Mus musculus with 13 samples.

Results

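Retinoic acid, the active form of vitamin A, is made inside cells from retinol, and 9 genes of its synthesis, binding and sensing were examined here in mouse ovaries and ovarian tumors. The genes were chosen by name: the retinaldehyde dehydrogenases Aldh1a1, Aldh1a2 and Aldh1a3, the retinol carrier Rbp4, the binding proteins Crabp1 and Crabp2, and the receptors Rara, Rarb and Rarg. All 9 were found in the deposited table, which lists 53465 genes. RNA had been sequenced from 3 ovaries of wild-type (WT) C57BL/6 mice without treatment and from 10 MP EPO-GEMM tumors (called MP tumors). An EPO-GEMM (electroporation-based mouse model) tumor arises when plasmids are electroporated into the ovary of an adult mouse, and MP tumors received Cas9 with an sgRNA against Trp53 and a transposon vector that overexpresses MYC. The hosts were WT C57BL/6 females aged 8 to 12 wk at electroporation, the tumors were collected at end point without drug treatment, and the labels give their genotype as Myc;p53-/-. The age of the WT mice when their ovaries were taken is not given in the labels. Electroporation does not select a cell type, the study describes the tumors as oligoclonal, and RNA came from whole tissue in both groups, so the comparison is of a whole tumor with a whole ovary.

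Retinol travels in blood bound to RBP4 and is stored in cells as retinyl esters. Alcohol and retinol dehydrogenases oxidize retinol to retinaldehyde in a reversible step, and the ALDH1A enzymes then oxidize retinaldehyde to retinoic acid, which is irreversible. CRABP proteins hold retinoic acid in the cytoplasm, where CRABP2 hands it to the nucleus and CRABP1 is linked to its breakdown, and the RAR receptors, paired with RXR, switch target genes at retinoic acid response elements. In the ovary retinoic acid is known for its part in the entry of fetal germ cells into meiosis and in follicle and steroid cell function, and ALDH1A1 is widely used as a marker of stem-like cells in ovarian cancer.

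Values are TPM, which sum to 1000000 in each library and are corrected for gene length so that genes can be compared within a library. The reads behind the TPM values numbered from 31445004 to 64013840 in the WT ovaries and from 3892690 to 19906507 in the MP tumors, so low values were counted less precisely in the tumors. Library names carry 1 of 3 numeric codes whose meaning the labels do not give, called A, B and C here. Code A covers the 3 WT ovaries and MP tumors 1 to 3, code B MP tumors 4 to 6, and code C MP tumors 7 to 10. With no WT ovary in codes B and C, a comparison within a code was possible for A alone. The library of MP tumor 2 stood apart, with 55.1% of its TPM in 10 genes against 7.92% to 20.6% in the other libraries. RNA of the targeted gene Trp53 was between 80.7 and 85.4 TPM in WT ovaries and between 4.30 and 26.0 TPM in 9 tumors, but at 187 TPM in the library labelled MP tumor 10. An RNA level does not tell an edited from an unedited gene. Differences were tested with limma as MP tumors minus WT ovaries on log2(TPM + 1), a scale that shrinks the differences of weakly expressed genes, and P values were adjusted over the 17277 genes tested by the Benjamini-Hochberg method.

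Of the 9 genes, 3 passed the test (limma adjusted P under 0.05) as lower in MP tumors and 0 as higher. The 3 were Aldh1a1, Aldh1a3 and Crabp2, that is, a pair of synthesis enzymes and a binding protein. The count was 1 when any of the 3 WT ovaries was left out, and 3 without MP tumor 2, without MP tumor 10, or without the mitochondrial genes and CT010467.1, a transcript that took a large part of MP tumor 2. The count was also 1 under median-of-ratios scaling and 1 with the trend with gene length removed, but 6 with the library code as covariate. Over all tested genes 14.3% were called lower and 2.51% higher (16.8% in all), and 5707 genes had an unadjusted P under 0.05. This balance depended on the scaling, with 1596 lower and 1992 higher when the trend with gene length was removed. Under quantile normalization 2091 were lower and 1904 higher. All 9 genes passed the filter on low values, Crabp1 and Rarb only through the tumors, since their WT values were all under 1 TPM. The median log2 difference of the 9 genes was -2.32, beside -0.58 for all genes tested, of which 69.9% had a negative difference. Under median-of-ratios scaling, the median of all genes moved to -0.02, so a difference of -0.58 corresponds to no difference from the typical gene. Among WT ovaries the levels, from high to low, stood in the order Aldh1a1, Aldh1a2, Rarg, Crabp2, Rara, Aldh1a3, Rbp4, Crabp1 and Rarb by median TPM. The ranges of neighbours in that order overlapped for Rarg and Crabp2, for Crabp2 and Rara, for Aldh1a3 and Rbp4, and for Crabp1 and Rarb. In MP tumors the ranges of all neighbours overlapped.

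**Figure D1:**
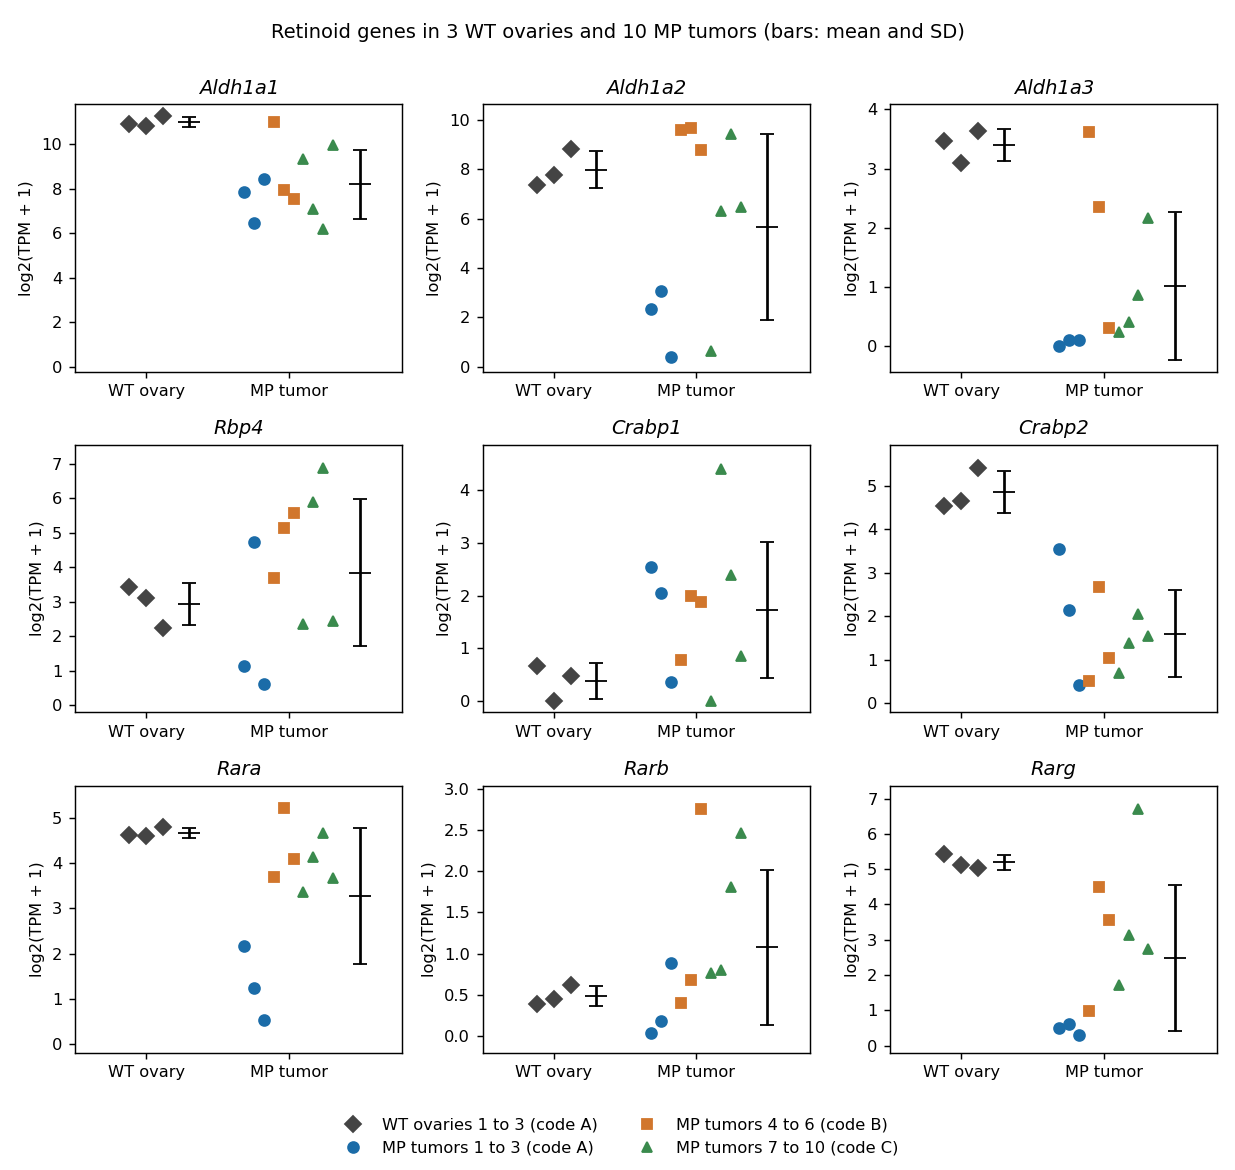
Level of each of the 9 retinoid genes as log2(TPM + 1) in 3 WT ovaries and 10 MP tumors, with 1 point per library, symbols by the code in the library name, and bars for the mean and SD of each group. Crabp2 has all 10 tumors below all 3 WT ovaries, Aldh1a1 and Aldh1a3 have 9 below and 0 above, and Rarg has 9 below and 1 above.

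Aldh1a1 (ENSMUSG00000053279, chr19:20492715-20643462, plus strand, GRCm38), the most abundant of the 9 genes in the ovary, was at 1875, 1791 and 2411 TPM in WT ovaries 1, 2 and 3. In MP tumors it ranged from 70.8 TPM in tumor 9 through a median of 239.6 to 2045 TPM in tumor 4. MP tumor 4 alone lay inside the WT range, and the other 9 tumors lay below it. The log2 difference was -2.79 (SE 0.81, n = 10 against 3, limma adjusted P = 0.0282). The call was lost under median-of-ratios scaling (-2.07, limma adjusted P = 0.103), with the trend with gene length removed (-1.94, limma adjusted P = 0.113), in voom on the reads (-2.06, limma adjusted P = 0.0943) and whenever a WT ovary was left out (limma adjusted P from 0.0957 to 0.127). Within code A the difference was -3.39 (limma adjusted P = 0.000961). Of the 76-base stretches of its exons, 0.953% also occur in the neighbouring paralog Aldh1a7.

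The WT ovaries and the tumors also differed in the RNA of their cell types, and in bulk tissue fewer cells of a type cannot be told apart from less RNA per cell. Of 9 granulosa cell markers, 8 were lower in MP tumors, and their summed level was between 3856 and 7041 TPM in WT ovaries against 20.3 to 2190 TPM in tumors. Of 7 tested markers of theca, interstitial and luteal cells, the steroid-producing cells of the ovary, 5 were lower, with sums between 27060 and 32150 TPM in WT ovaries against 10.3 to 1342 TPM. The 8 oocyte markers had 0 reads of Figla in every tumor, and their sums were between 280.6 and 416.3 TPM in WT ovaries and between 1.43 and 32.5 TPM in tumors. Every WT ovary thus had higher granulosa, steroid cell and oocyte sums than any tumor, though granulosa sums of 2190, 1627, 1015 and 1315 TPM were found in tumors 4, 5, 6 and 10. These sums were mostly Inha and Amhr2, while Amh was at most 28.9 TPM in a tumor and at least 228.5 TPM in WT ovaries. Of 10 surface epithelium and mesothelium markers, 5 were lower, with sums between 411.3 and 466.6 TPM in WT ovaries and between 8.00 and 1296 TPM in tumors. MP tumor 4, with the highest Aldh1a1 of the tumors, also had the highest granulosa (2190 TPM) and surface epithelium (1296 TPM) sums of the tumors. In it Fshr, Cyp19a1 and Inhba were at 0 TPM, and the surface sum was mostly Krt8, Krt18 and Krt19 (424.6, 496.3 and 204.7 TPM). Krt7, Upk1b, Msln, Muc16 and Cdh1 were below all WT ovaries there, Wt1 was inside the WT range and Upk3b just above it. For fibroblasts 3 of 7 markers, for smooth muscle 4 of 5, for endothelial cells 3 of 6 and for oviduct epithelium 1 of 2 were lower, and for leukocytes 0 of 4, while 0 markers of any list were higher, beside 14.3% and 2.51% of all genes. Fshr, Cyp19a1 and Inhba of the granulosa markers, Lhcgr of the steroid cell markers, Muc16 and Cdh1 of the surface markers and 7 of the oocyte markers (all but Gdf9) passed the filter on low values only through the WT ovaries, so a lower call was favoured by the filter and these counts are a description. The part of these cell types in the retinoid gene differences was not tested.

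Aldh1a2 (ENSMUSG00000013584, chr9:71215789-71296243, plus strand), the enzyme that makes most retinoic acid in the embryo, was at 165.5, 215.3 and 453.3 TPM in the WT ovaries. In the tumors it ranged from 0.302 TPM in tumor 3 to 810.4 TPM in tumor 5, with a median of 83.0 TPM and a 2681-fold span. The tumors fell on both sides of the ovaries, with 6 below all WT values, 3 above (tumors 4, 5 and 9 at 781.0, 810.4 and 702.4 TPM) and tumor 6 inside the range. The log2 difference was -2.32 (SE 1.94, limma adjusted P = 0.407), no larger than the spread between tumors. Within code A, where the 3 tumors held 3.99, 7.39 and 0.302 TPM, it was -6.06 (limma adjusted P = 0.00024). Aldh1a2 was thus low in the 3 tumors of code A, high in the 3 of code B and mixed in code C, and code and tumor cannot be told apart.

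Aldh1a3 (ENSMUSG00000015134, chr7:66390890-66427517, minus strand), the third retinaldehyde dehydrogenase and the scarcest of them in the ovary, was at 10.1, 7.55 and 11.4 TPM in WT ovaries. It ranged in tumors from 0 reads in tumor 1, a count that allows up to 0.0904 TPM, through a median of 0.275 to 11.3 TPM in tumor 4. Tumor 4 was again the only tumor inside the WT range, the next being tumor 5 at 4.11 TPM and tumor 10 at 3.48 TPM. The log2 difference was -2.39 (SE 0.69, limma adjusted P = 0.0288), and within code A it was -3.33 (limma adjusted P = 2.3e-05). The call was lost with any WT ovary left out (limma adjusted P from 0.0863 to 0.128), and with the length trend removed (0.0763), median-of-ratios scaling (0.053), quantile normalization (0.0706) or a pseudocount of 0.1 (0.0596).

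The summed Aldh1a level was between 2014 and 2875 TPM in WT ovaries and between 94.0 and 2837 TPM in MP tumors, 9 of which lay below the WT range. Shares within a family do not change with a scale factor common to a library, and 7 such shares were compared by exact permutation tests, 2-sided, with Benjamini-Hochberg adjustment over the 7. Aldh1a1 made up 88.1% ± 3.87 (SD, n = 3) of the sum in WT ovaries and led in all 3. In tumors it made up 67.9% ± 35.1 (SD, n = 10) and led in 7, while Aldh1a2 led in tumors 5, 6 and 9 with 76.4%, 70.4% and 90.8% of the sum. The mean difference in Aldh1a1 share, -20.2 percentage points, was smaller than the SD of the tumors (exact permutation P = 0.413, adjusted 0.413). Within code A the direction turned, with the Aldh1a1 share 8.68 points higher in tumors, where 3 against 3 libraries cannot give a P under 0.1. The Aldh1a3 share was 0.421% ± 0.0631 in WT ovaries and 0.153% ± 0.156 in tumors, and 8 tumors lay below all WT ovaries (exact permutation P = 0.035, adjusted 0.0613), a difference that passed the threshold without tumor 4 (exact permutation adjusted P = 0.0424).

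**Figure D2:**
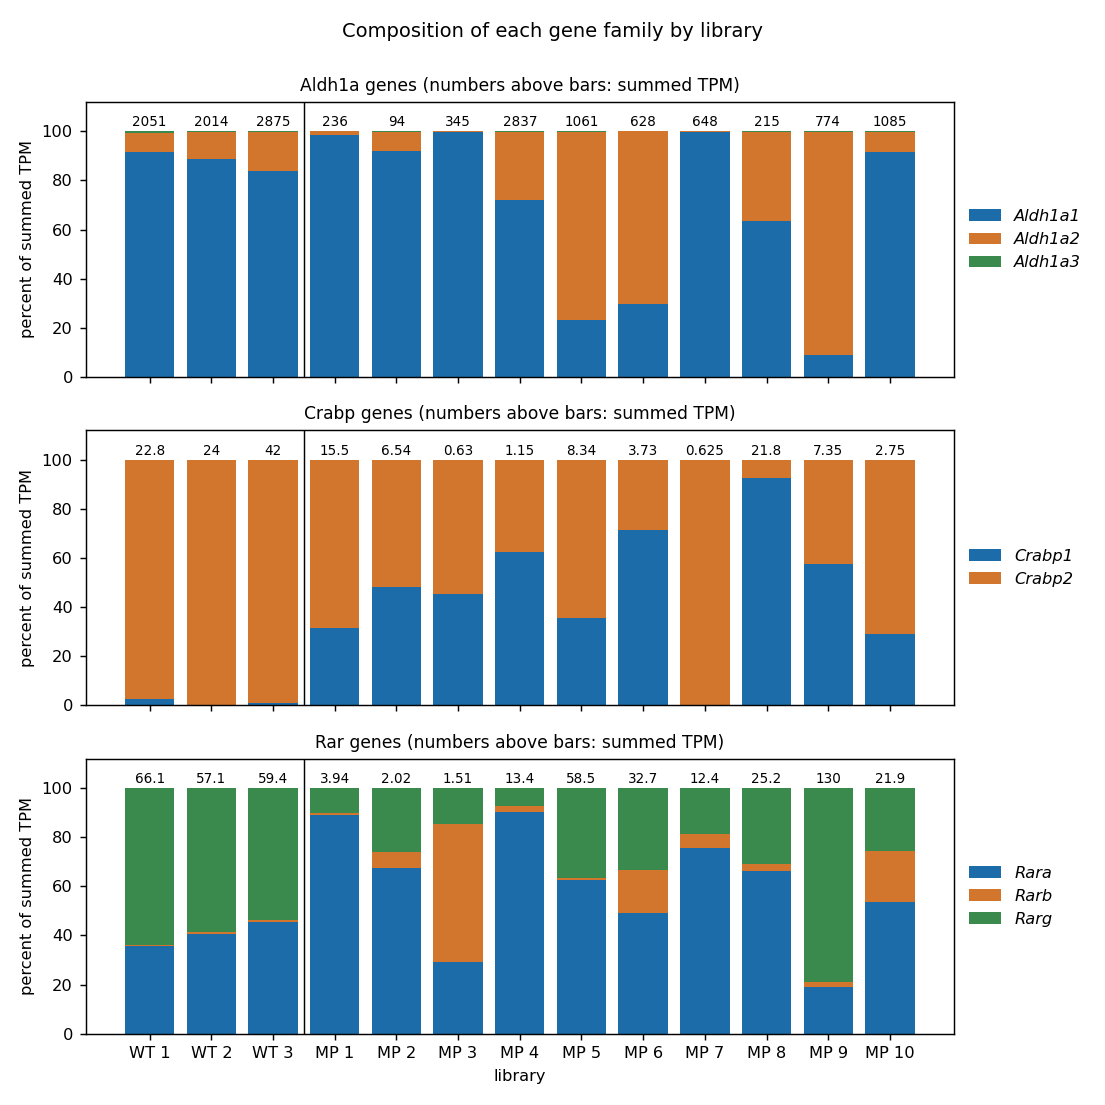
Share of each gene in the summed TPM of its family, in percent, for each of the 13 libraries, with the Aldh1a, Crabp and Rar families from top to bottom, and the summed TPM of the family above each bar. Aldh1a1 leads in all WT ovaries and Aldh1a2 in MP tumors 5, 6 and 9, Crabp2 fills at least 97.4% of the Crabp sum in WT ovaries, and Rarg leads the receptors in WT ovaries but in 1 tumor only.

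Rbp4 (ENSMUSG00000024990, chr19:38116620-38125321, minus strand), the carrier of retinol in blood, was at 9.81, 7.62 and 3.76 TPM in WT ovaries. Tumor values ran from 0.528 TPM in tumor 3 through a median of 18.7 to 117 TPM in tumor 9, with 6 tumors above all WT ovaries and 2 below. The groups overlapped, and the log2 difference was 0.91 (SE 1.13, limma adjusted P = 0.578). Within code A the sign turned to -0.78 (limma adjusted P = 0.521), with tumor 2 at 25.4 TPM and tumors 1 and 3 at 1.18 and 0.528 TPM. Neither value was larger than its error.

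Crabp2 (ENSMUSG00000004885, chr3:87948666-87953376, plus strand), which delivers retinoic acid to the receptors, had the smallest adjusted P of the 9 genes over all libraries. It was at 22.2, 24.0 and 41.6 TPM in WT ovaries, a mean of 29.3 ± 10.7 (SD, n = 3). In the tumors it ranged from 0.345 TPM in tumor 3 through a median of 1.78 to 10.6 TPM in tumor 1. The 2 groups did not overlap, as was so for 16.4% of all tested genes in this direction, and Crabp2 was the only one of the 9 genes for which it held. None of the 9 had all tumors above all WT ovaries, as was so for 3.02% of tested genes. The log2 difference was -3.26 (SE 0.60, limma adjusted P = 0.00177), and within code A it was -2.83 (limma adjusted P = 0.0105), the largest P of the 6 genes called there. It kept its call under every alternative that was run except with the replicate number as a block (-2.83, limma adjusted P = 0.0709), and the adjusted P over the alternatives ran from 0.000363 to 0.0709. In the tumors these values rested on 1 to 101 reads.

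Crabp1 (ENSMUSG00000032291, chr9:54764748-54773110, plus strand), the other cytoplasmic binding protein, was barely detected in WT ovaries, with 7, 0 and 6 reads that gave 0.588, 0 and 0.384 TPM. The 0 in WT ovary 2 allows up to 0.406 TPM. Tumor values ran from 0 reads in tumor 7, which allows up to 1.54 TPM, through a median of 2.81 to 20.2 TPM in tumor 8. Of the tumors 8 lay above all WT ovaries, but 3 of the 10 values rested on no more than 1 read. The log2 difference of 1.35 (SE 0.71) did not pass the test (limma adjusted P = 0.195). It passed in voom on the reads (3.75, limma adjusted P = 0.019) and in the fit with the replicate block (1.28, limma adjusted P = 0.0387). The call on Crabp1 thus depended on the fit.

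The makeup of the Crabp pair was compared next. Crabp2 made up 98.8% ± 1.31 (SD, n = 3) of the summed Crabp level in WT ovaries and 46.6% ± 21.95 (SD, n = 8) in the tumors with a sum of at least 1 TPM, which left out tumors 3 and 7. All 8 of these tumors lay below all WT ovaries, with a highest share of 70.8% in tumor 10, but some of these shares rested on few reads. Tumor 4 had 1 read of each gene and tumor 10 had 1 of Crabp1 and 4 of Crabp2. In the tumors left out the share was 54.8% in tumor 3 and 100% in tumor 7, from 2 reads of Crabp2 and 0 of Crabp1. The difference was -52.3 percentage points (exact permutation P = 0.0121, adjusted 0.049), and 0.0121 is the smallest 2-sided P these numbers allow. The call was lost with tumors 3 and 7 kept in (-46.1 points, exact permutation adjusted P = 0.0612), and without any WT ovary or any of tumors 1, 2, 5, 6, 8 and 10, with differences between -55.7 and -46.7 points and exact permutation adjusted P values from 0.0583 to 0.212. Each library left out of the test raised the smallest P it could give, most so a WT ovary. Such a loss can therefore follow from the number of libraries alone. Leaving out tumor 3 or tumor 7, which were not in the test, kept -52.3 points and moved the exact permutation adjusted P to 0.0636 through the other shares alone. Within code A, with tumor 3 left out, the difference was -38.5 points between 3 ovaries and 2 tumors. By TPM, Crabp1 exceeded Crabp2 in tumor 8, with 99 against 13 reads, and in 0 WT ovaries. It did so too in tumors 4, 6 and 9, but from 1 against 1, 6 against 4 and 9 against 11 reads, too few to order the genes.

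**Figure D3:**
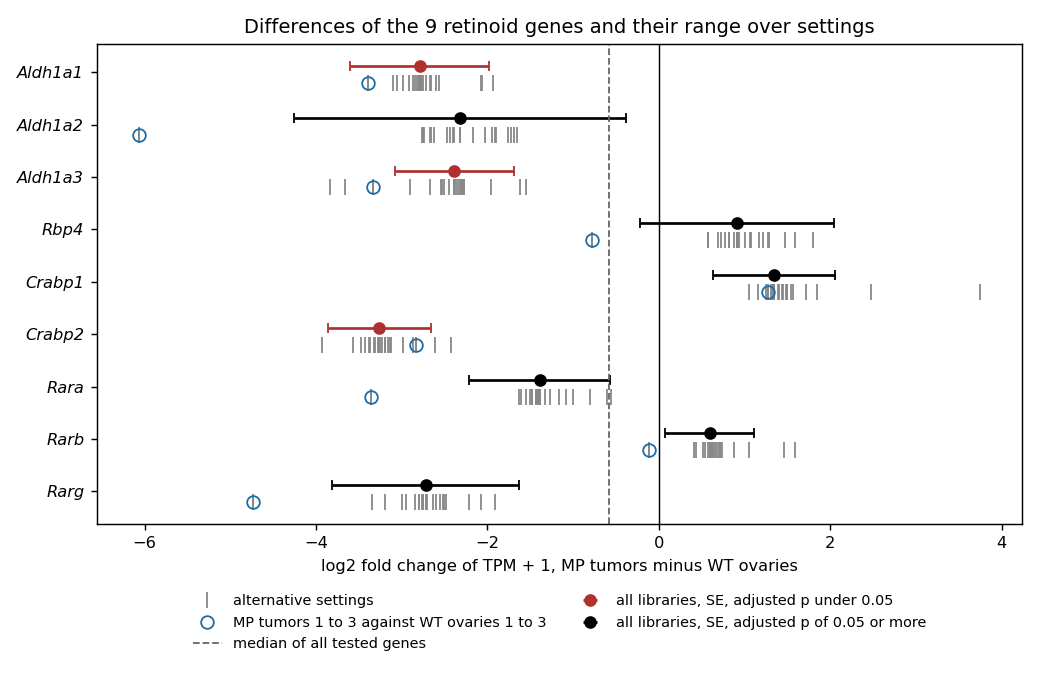
Log2 fold change of each retinoid gene on the log2(TPM + 1) scale, MP tumors minus WT ovaries, with its SE (circles with bars, red where the adjusted P is under 0.05), beside the values under the alternative settings (grey ticks, voom on its own log2 scale of reads) and within code A (open circles), with a dashed line at the median of all tested genes. Crabp2, Aldh1a1 and Aldh1a3 are called lower, and Rbp4 and Rarb change sign within code A.

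Rara (ENSMUSG00000037992, chr11:98927818-98974942, plus strand), the most broadly expressed retinoic acid receptor, was at 23.7, 23.2 and 26.9 TPM in WT ovaries. Tumor values ran from 0.444 TPM in tumor 3 through a median of 11.9 to 36.6 TPM in tumor 5, and 8 tumors lay below all WT ovaries. The log2 difference of -1.39 (SE 0.82) did not pass the test (limma adjusted P = 0.246). Within code A, where the tumors held 3.51, 1.36 and 0.444 TPM, it was -3.36 (limma adjusted P = 0.000285).

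Rarg (ENSMUSG00000001288, chr15:102234938-102257517, minus strand), the receptor best known from skin and cartilage, was the most abundant RAR gene of the WT ovaries, at 42.2, 33.5 and 31.9 TPM. It ranged in the tumors from 0.222 TPM in tumor 3 through a median of 3.97 to 102.6 TPM in tumor 9, with 9 tumors below all WT ovaries and tumor 9 above them. The log2 difference was -2.72 (SE 1.10, limma adjusted P = 0.0981). Without tumor 9 it was -3.19 and passed the test (limma adjusted P = 0.0151), as it did in voom on the reads (-2.71, limma adjusted P = 0.0216) and within code A (-4.73, limma adjusted P = 1.58e-05). The call on Rarg thus depended on tumor 9 and on the fit. Tumor 9 was also the highest in Rbp4, and it had the highest fibroblast sum (4640 TPM) and the second highest surface epithelium sum (1000 TPM) of the tumors.

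Rarb (ENSMUSG00000017491, chr14:16430839-16819156, minus strand), a receptor that is itself a classical retinoic acid target, was scarce in WT ovaries, at 0.307, 0.371 and 0.536 TPM. Tumor values ran from 0.0264 TPM in tumor 1 through a median of 0.725 to 5.73 TPM in tumor 6, with 7 tumors above all WT ovaries and 2 below. Only tumors 6, 9 and 10 reached 1 TPM, at 5.73, 2.501 and 4.52 TPM from 85, 35 and 37 reads. The log2 difference of 0.59 (SE 0.52) did not pass the test (limma adjusted P = 0.434), passed with the length trend removed (1.46, limma adjusted P = 0.0328), and turned to -0.12 within code A (limma adjusted P = 0.697). Exons of Rarb overlap those of Top2b and Gm48162 on the opposite strand, and 32.0% of its 76-base stretches are shared with them. Whether the counting used strand, and how it treated reads that fit both genes, is not given in the sources used here. Rarb can therefore have gained or lost reads where it overlaps Top2b. Top2b was at 53.2 TPM on average in WT ovaries and between 18.1 and 79.3 TPM in tumors.

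Rarb is shown with its promoter because it is the only one of the 7 genes with a promoter window that has a match to a classical retinoic acid response element in the stretch examined. A match is a description of the letters and does not show that a receptor binds. The element searched is a direct repeat of the 6-base motif AGGTCA, or of its variants that read AGTTCA in the first case, GGGTCA in the next and GGTTCA in the last, with a spacer of 5 bases, on either strand, in windows from 250 bases before to 50 bases after each RefSeq start (GRCm38.p6). The 7 genes other than Aldh1a3 and Crabp2 matched a window. The repeat stood in 32 of 32851 windows of all genes (0.0974%), while a lone 6-base motif stood in 43.7% of windows and in those of Aldh1a1, Rbp4, Rara, Rarb and Rarg. Among the retinoid genes of all lists used here it was found also for Cyp26a1, which encodes the enzyme that breaks down retinoic acid. Both are printed on the strand of the gene, with only the 6-base motifs of the repeat in capitals, from chr14:16575483-16575559 (minus strand) and chr19:37697746-37697807 (plus strand), where the Cyp26a1 repeat reads on the opposite strand.
Rarb: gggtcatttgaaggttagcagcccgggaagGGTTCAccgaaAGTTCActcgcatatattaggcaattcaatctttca
Cyp26a1: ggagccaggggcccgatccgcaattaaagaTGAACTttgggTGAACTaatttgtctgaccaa
The Rarb repeat lies 53 to 37 bases before its RefSeq start, which is inside the gene span given above and not at its outer end. The Cyp26a1 repeat lies 32 to 16 bases before the RefSeq start of that gene. Repeats with a spacer of 1 or 2 bases were found in 0.222% and 0.268% of windows and in 0 of the 7 genes with a window.

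The summed receptor level was between 57.1 and 66.1 TPM in WT ovaries and between 1.51 and 130 TPM in tumors, with 8 tumors below and tumor 9 above the WT range. In WT ovaries Rarg made up 58.8% ± 4.98 (SD, n = 3) and Rara 40.6% ± 4.76 of the sum, and Rarg led in all 3. In tumors Rara led in 8, Rarg in tumor 9 alone and Rarb in tumor 3. The Rarg share was 28.2% ± 20.4 (SD, n = 10) in tumors, a difference of -30.5 points (exact permutation P = 0.035, adjusted 0.0613), and it passed the threshold without tumor 9 (-36.2 points, exact permutation adjusted P = 0.0424). The Rara share was 60.2% ± 23.3 in tumors, a difference of 19.6 points that did not pass (exact permutation P = 0.182, adjusted 0.255). The Rarb share was 0.672% ± 0.220 in WT ovaries and 11.6% ± 17.1 in tumors, higher than in all WT ovaries in 9 of 10 tumors (exact permutation P = 0.014, adjusted 0.049). It was largest in tumor 3, at 55.9% of a receptor sum of 1.51 TPM. Without tumor 3 the difference was 5.95 in place of 10.9 points (exact permutation adjusted P = 0.0636), and the call was lost without any library other than tumor 4 or tumor 9 (exact permutation adjusted P up to 0.212). Without a WT ovary the smallest P the test could give was larger, so that loss can follow from the number of libraries alone. Reads gained or lost where Rarb overlaps Top2b cannot be told apart in this share.

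Within code A alone, 6 of the 9 genes were lower in MP tumors 1 to 3 than in the WT ovaries (Aldh1a1, Aldh1a2, Aldh1a3, Crabp2, Rara and Rarg), with 0 higher. For each of the 6 these 3 tumors all lay below all WT ovaries. Of all tested genes 57.3% were called lower and 6.44% higher (63.7% in all) in that comparison, and 61.8% had the 3 tumors below all WT ovaries, so the share of retinoid genes was near the background. The median difference of all genes was -1.20 there.

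Across the 10 tumors, levels on the log2(TPM + 1) scale were compared between the genes as a description, since tumors share library codes and depths. Rara and Rarg had the highest values of both measures (Pearson r = 0.81, Spearman rho = 0.93). By r, Aldh1a2 and Rara (r = 0.81, rho = 0.83) and Rbp4 and Rarg (r = 0.77, rho = 0.84) came next, and by rho Aldh1a2 and Aldh1a3 (r = 0.66, rho = 0.87). Aldh1a1 did not run with Aldh1a2 (r = -0.01, rho = -0.02), and it ran against Crabp1 (r = -0.66, rho = -0.75). Tumors 1 to 3 were the lowest 3 of the 10 in Rara, and tumors 3, 7 and 1 the lowest in Aldh1a2. By the same measure over all tested genes, the genes most like Aldh1a1 were Layn and Gm7049 (both r = 0.94) and Mief2 (r = 0.93), and those most like Aldh1a2 were Tspan7, Itga3 and Fhl1 (r = 0.95). The closest to Rara were Fkbp9 (r = 0.99) and Ehd2 (r = 0.98), and to Rarg Arhgef40 (r = 0.99), Ppargc1a and Dact3 (both r = 0.98). For Aldh1a3 they were Gm16201 (r = 0.99), Lyve1 and Gm14158 (both r = 0.98), for Rbp4 Ccdc112 (r = 0.96), Ift81 (r = 0.94) and Rbms3 (r = 0.93), and for Rarb Spon2, Acan (both r = 0.93) and Gm24366 (r = 0.92). For Crabp1 Nol3 (r = 0.87), Ddx25 (r = 0.86) and Snhg11 (r = 0.84) came closest, and for Crabp2 Gm14207 (r = 0.89), BC023105 (r = 0.86) and Dppa2 (r = 0.83). Without the 2 tumors farthest from the median the r with Crabp1 fell to 0.51 for Ddx25 and 0.50 for Snhg11, and the r with Crabp2 to 0.59 for BC023105 and 0.54 for Dppa2.

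The rest of the pathway was described with lists of 46 other genes, of which 31 passed the filter. Of these, 9 (29.0%) were lower in MP tumors and 0 were higher, beside 14.3% and 2.51% of all genes, and the median log2 difference of the 31 was -1.48, beside -0.58. The count was 4 with a filter of 1 TPM in 10 libraries, 5 without WT ovary 1, 6 without WT ovary 2, and 24 within code A, where 57.3% of all genes were lower. Rdh1 and Bco2, both among the 9, passed the filter only through the WT ovaries, so the count is a description. The 9 were 3 of 7 tested genes of uptake and storage and 6 of 13 oxidoreductases, while 0 of 1 gene of breakdown and 0 of 10 RXR genes and co-regulators were called. With the length trend removed, under median-of-ratios scaling, under quantile normalization and in voom, 3 genes of these lists were called higher.

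In uptake and storage, Lrat, which esterifies retinol for storage, was at 33.3, 26.0 and 36.6 TPM in WT ovaries and at most 5.42 TPM in a tumor, with a median of 0.138. Its log2 difference was -4.31 (SE 0.54, limma adjusted P = 4.5e-05), and the tumors lay below all WT ovaries. Dgat1, an acyltransferase that can also esterify retinol, and Scarb1, a lipoprotein and carotenoid receptor, were lower by -1.97 and -3.96 on the log2 scale (limma adjusted P = 0.006 and 0.00199), and Dgat1 lost its call without WT ovary 1 (limma adjusted P = 0.0599). Stra6, the receptor that takes up retinol from RBP4, was at 38.6, 22.6 and 41.6 TPM in WT ovaries and had a tumor median of 0.821 TPM. Tumors 5 and 9 were high for it, at 31.7 and 105.8 TPM, and the difference of -3.25 did not pass (limma adjusted P = 0.0857). It passed without tumor 5 (limma adjusted P = 0.0401), without tumor 9 (0.0114) and in voom (0.0197). It also passed within code A (limma adjusted P = 2.12e-05), where 57.3% of all genes were called lower.

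Among the oxidoreductases, Adh1, an alcohol dehydrogenase that acts on retinol, was at 170.0, 271.3 and 502.2 TPM in WT ovaries and between 0.0806 and 49.5 TPM in tumors, without overlap. Its log2 difference was -5.51 (SE 0.98, limma adjusted P = 0.0013). Bco2, a carotenoid-cleaving oxygenase, and Rdh1, a retinol dehydrogenase, were lower by -2.64 and -1.88 (limma adjusted P = 3.93e-05 and 0.00079) from WT means of 7.89 and 3.82 TPM. With the length trend removed Rdh1 differed by -1.08 and lost its call (limma adjusted P = 0.056). Rdh11 and Rdh14 were lower as well. Dhrs3, a reductase that turns retinaldehyde back to retinol, was lower by -2.34 (limma adjusted P = 0.0488), with tumor 5 at 158 TPM above the WT range of 104 to 132 TPM, and lost its call in many alternatives, among them each that left out a WT ovary (limma adjusted P from 0.137 to 0.172). Rdh10, the main retinol dehydrogenase of the embryo, differed by -0.30 (limma adjusted P = 0.739), and the sign of its difference depended on the scaling. It was called lower within code A (-1.48, limma adjusted P = 0.00136), where the median of all genes was -1.20 and 57.3% were called lower. The fits with the code as covariate (limma adjusted P = 0.0204) and with the replicate block (0.00288) took that difference from the same libraries.

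Of the CYP26 enzymes, which degrade retinoic acid, Cyp26b1 alone passed the filter, with a difference of -1.48 (limma adjusted P = 0.14). Within code A, where the median of all genes was -1.20, it was called lower (-2.62, limma adjusted P = 0.00116). The fits with the code as covariate (limma adjusted P = 0.00523) and with the replicate block (0.0007) took that difference from the same libraries. Cyp26a1, whose promoter carries the repeat shown above, did not exceed 0.367 TPM in WT ovaries, and its highest tumor value was 2.55 TPM in tumor 9. Cyp26c1 was at or below 0.374 TPM in all libraries. Of the RXR partners, Rxra was at 53.5, 48.5 and 51.5 TPM in WT ovaries and from 0.713 to 73.2 TPM in tumors (log2 difference -1.88, limma adjusted P = 0.2). Within code A it was lower by -4.31 (limma adjusted P = 5.9e-05), beside a median of -1.20 for all genes. The fits with the code as covariate and with the replicate block took that difference from the same libraries and called it as well. Rxrb was at 61.4, 60.2 and 62.8 TPM in WT ovaries and from 26.5 to 143 TPM in tumors, a difference of 0.46 (limma adjusted P = 0.47) that passed as higher under 4 other scalings or fits and was negative within code A. Rxrg stayed at or below 1.40 TPM in every library.

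**Figure D4:**
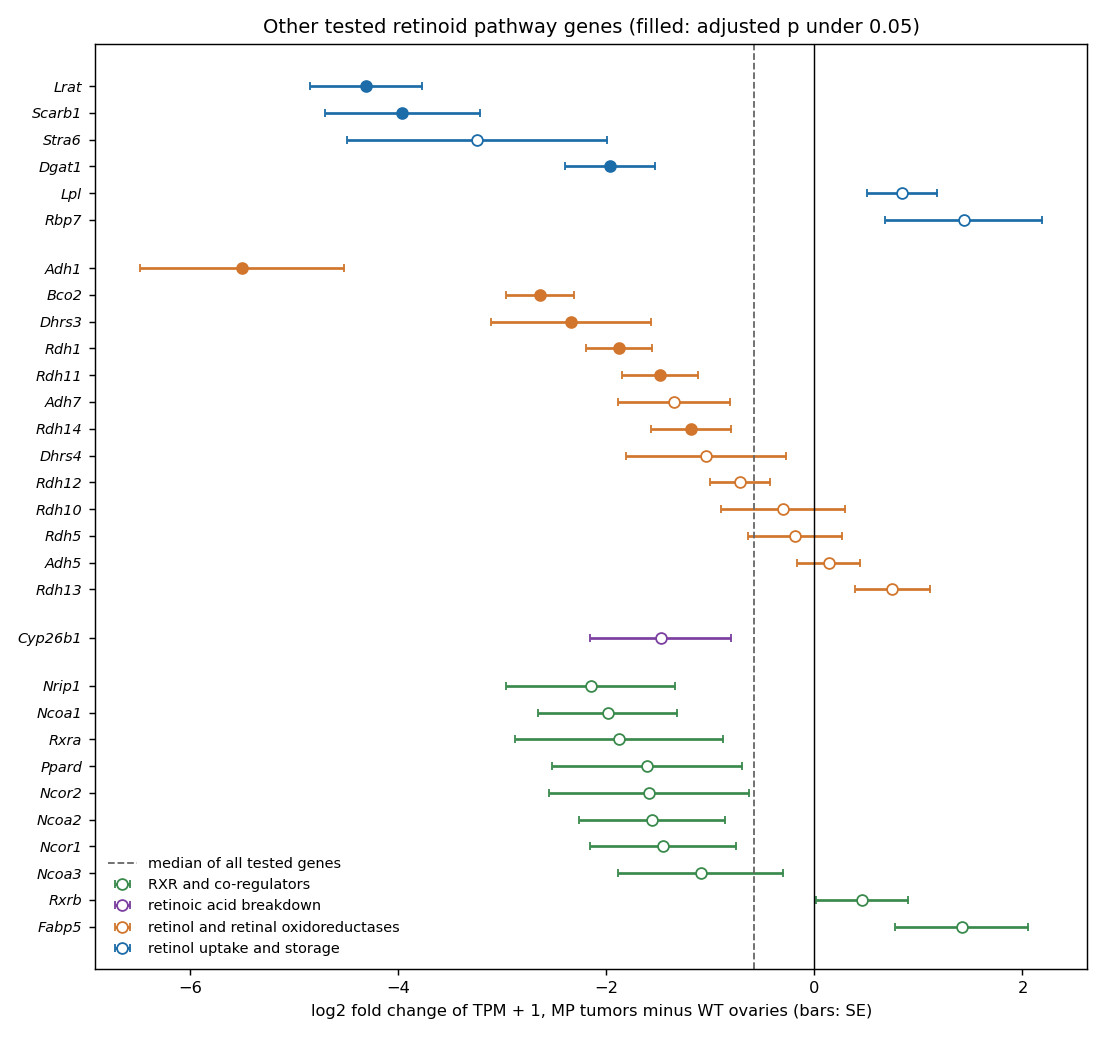
Log2 fold change on the log2(TPM + 1) scale, MP tumors minus WT ovaries, with SE, for 30 of the 31 tested genes of the other retinoid pathway lists, colored by list, with filled symbols for an adjusted P under 0.05 and a dashed line at the median of all tested genes. The 9 filled symbols belong to uptake and storage or to the oxidoreductases, with Adh1 lowest at -5.51.

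Among 16 tested genes of 22 known retinoic acid targets, 4 were lower (25.0%, beside 14.3% of all genes) and 0 higher, with a median log2 difference of -1.34. With the filter of 1 TPM in 10 libraries 2 were lower, and within code A 13, where 57.3% of all genes were. The 4 were Crabp2, Dhrs3, Lrat and Rarres2, a retinoid-inducible gene that encodes the adipokine chemerin, which fell from a WT mean of 101.7 TPM to a tumor median of 1.90 TPM (log2 difference -4.40, limma adjusted P = 0.00178). Crabp2 is also 1 of the 9 genes, and Lrat and Dhrs3 are also in the lists of uptake and storage and of oxidoreductases, so the counts are not separate. Of 15 other aldehyde dehydrogenases, 2 were lower (13.3%, near the background) and 0 higher, with a median of -0.71. They were Aldh1l1, a folate enzyme, at -3.87 (limma adjusted P = 0.00386), and Aldh3b1 at -3.10 (limma adjusted P = 0.00942), which lost its call without WT ovary 1 (0.0646) or 2 (0.0514). Aldh1a7, the neighbouring paralog of Aldh1a1, differed by -0.72 (limma adjusted P = 0.443).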

How the data were processed

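PolyA RNA-seq (76 bp, read from 1 end) of 3 WT ovaries and 10 MP tumors was analysed from the table the authors deposited, which holds TPM values that sum to 1000000 per library. The submitters' processing notes name FastQC 0.11.5, Trimmomatic 0.36, STAR 2.5.3a, featureCounts 1.6.3 and mm10 (GRCm38), while the labels' protocol names hg19, HTSeq and RPKM. Start and end equal those of GENCODE M21 for 96.2% of genes, so GRCm38 was used. Whole reads were recovered from the steps of TPM times length for 100.0% of values (tolerance 0.01 reads). A read per kb was worth 0.0513 to 0.109 TPM in WT ovaries and 0.114 to 0.791 TPM in tumors, and limits for a count of 0 are 3 reads per library and cover counting error only. Replicates differed beyond sampling noise (chi-square per degree of freedom from 25.9 to 93.6 in WT ovaries and from 46.1 to 591 in tumors), so each counted as a sample. The labels do not say that each library came from a separate mouse, and P values measure the spread between these libraries.

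Genes with at least 1 TPM in at least 3 libraries were tested on log2(TPM + 1) with limma 3.58.1 (trended, robust, no covariate) in R 4.3.3, after a test on simulated data, with a Benjamini-Hochberg threshold of 0.05. Shares were compared by exact permutation tests over all choices of the WT libraries, 2-sided (scipy 1.17.1), leaving out libraries with a family sum under 1 TPM. The 9 genes and all lists were chosen with earlier results of these data known. The cell type markers named singly were chosen after their values were seen. Besides the 9 genes, the text names the 3 strongest calls per retinoid list and direction, 9 pathway genes taken whatever their values (Cyp26a1, Cyp26b1, Cyp26c1, Rxra, Rxrb, Rxrg, Stra6, Rdh10 and Dhrs3), the 3 genes most like each of the 9 (1 of these and 1 pathway gene are not reported here), and, chosen after their values were seen, Rdh11, Rdh14, Top2b, Aldh1a7, Trp53 and CT010467.1. WT ovaries and tumors with the same replicate number are different animals and did not deviate together (correlations of -0.0488, 0.019 and -0.0367), so the numbers did not pair them. Promoter windows were taken from RefSeq (GRCm38.p6). Figures were drawn with matplotlib 3.10.9.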

Additional observations from a re-analysis of the deposited data

Results flagged for a closer look

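In 17 of the 34 measures examined (the levels of 27 genes and 7 shares), the highest tumor stood apart from the other 9 by Dixon's criterion, and no lowest tumor did. For independent, normally distributed measures 1.7 would be expected. TPM values are skewed to high values and the measures share the same tumors, so the count is a description and not an excess over chance. On the log2 scale 3 of the 27 genes had such a tumor, with none of the 9 retinoid genes among them.

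Tumor 4 stood apart in Aldh1a1 (2045 TPM, the next tumor at 994.5), Aldh1a3 (11.3 TPM, next 4.11), Rdh1 (1.75 TPM) and Aldh1l1 (23.6 TPM). It also had the highest granulosa and surface epithelium marker sums of the tumors, mostly from Inha, Amhr2, Krt8, Krt18 and Krt19. The part of these cell types in these values was not tested.

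Tumor 9 stood apart in Rarg (102.6 TPM, next 21.4), Rbp4 (117 TPM, next 58.3), Stra6 (105.8 TPM), Lrat (5.42 TPM), Cyp26a1 (2.55 TPM) and the Rarg share of the receptors (79.1%, next 36.5%).

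Among the other tumors, Crabp1 was highest in tumor 8 (20.2 TPM, next 4.86), Crabp2 in tumor 1 (10.6 TPM, next 5.38), Adh1 in tumor 7 (49.5 TPM), Dhrs3 in tumor 5 (158 TPM), Rxrg in tumor 10 (1.40 TPM), Cyp26c1 in tumor 8 (0.374 TPM, all other tumors at 0) and the Rarb share in tumor 3 (55.9%, next 20.6%).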

How the results depend on the processing

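Among alternatives that did not leave out a library, the genes called lower of the 9 numbered 1 with the length trend removed and 1 under median-of-ratios scaling, 6 with the library name code as a covariate, 6 within code A and 5 with the replicate block, and genes called higher numbered 1 with the length trend removed, 1 with the block and 1 in voom. Of the other pathway genes, 4 were lower with a filter of 1 TPM in 10 libraries, 23 with the covariate, 24 with the block and 24 within the code, and 3 were higher with the length trend removed, median-of-ratios, quantile normalization or voom and 2 with the covariate, block or code. Of the target genes, 2 were lower with the stricter filter, 11 with the covariate, 13 with the block and 13 within the code, and 1 was higher with the length trend removed. Leaving out a library gave 1 to 4 of the 9 genes lower, 5 to 12 other pathway genes lower and 0 to 1 higher, and 3 to 6 targets lower. The count of 1 came without any of WT ovaries 1, 2 and 3.

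Shares within code A differed by 8.68 points for Aldh1a1 and -8.29 for Aldh1a2, with signs turned, and by 20.4 for Rarb, where 3 against 3 libraries allow no P under 0.1, and by -38.5 for Crabp2, with 2 tumors and so a larger smallest P. With no minimum family sum the differences were -46.1 (Crabp2) and 10.9 (Rarb, adjusted P = 0.0612). With a library left out they ranged from -0.295 to -0.232 (Aldh1a3), -55.7 to -46.7 (Crabp2), 5.95 to 12.1 (Rarb) and -36.2 to -28.0 (Rarg).

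Signs also turned for Rdh10 (0.52 with the length trend removed, 0.34 under median-of-ratios, 0.67 under quantile normalization, 0.30 in voom), and for Rbp4 (-0.78), Rarb (-0.12) and Rxrb (-0.46) in the covariate, block and within-code fits. The covariate, block and within-code fits all took the difference from the 3 WT ovaries and tumors 1 to 3, so they are not separate results. The fit with the replicate block called 9803 genes lower and 1087 higher, and its numbers pair no animals. Of all tested genes, 900 were lower with the stricter filter, 8534 lower and 894 higher with the covariate, 9902 lower and 1112 higher within the code, and 1158 to 1195 lower and 94 to 153 higher without a WT ovary. Genes called higher numbered 1992 with the length trend removed (1596 lower), 1276 under median-of-ratios, 1904 under quantile normalization and 2729 in voom. The median of all genes was between -1.20 and 0.12 over these settings. The cause of these changes was not tested. Depth limits Aldh1a3, Crabp1, Crabp2 and Rarb, with at most 91, 99, 101 and 85 reads in a tumor.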
